A study of Solanum lycopersicum with 26 samples.

Results

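The genes described here are 10 genes of tomato (Solanum lycopersicum, cv. Moneymaker) that encode enzymes handling superoxide and hydrogen peroxide. They were chosen by identifier out of 33976 gene models in the count table, whatever their level. They comprise 3 catalase genes (CAT1, Solyc12g094620; CAT2, Solyc02g082760; CAT3, Solyc04g082460), 3 ascorbate peroxidase (APX) genes (Solyc06g005160, Solyc06g005150 and Solyc09g007270) and 4 superoxide dismutase (SOD) genes (Solyc01g067740, Solyc11g066390, Solyc06g049080 and Solyc06g048410). All 10 passed the filter on low counts in every fit. The digits after Solyc give the chromosome in this naming system, so that 4 of the 10 lie on chromosome 6.

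RNA was sequenced from the embryo and the endosperm of mature seeds at 70 days after flowering (DAF), with 10 seeds per replicate. Fruits were picked at the breaker stage, at 63 DAF, and ripened off the plant for 7 days in growth chambers under 16 h of light per day. High temperature with dim light (HT_DL) meant 32 °C days and 26 °C nights at 25 µE. High temperature with high light (HT_HL) was 32 °C and 26 °C at 300 µE. Standard temperature with dim light (ST_DL) was 23 °C and 20 °C at 25 µE, and the standard condition (ST_HL) was 23 °C and 20 °C at 300 µE. All groups are of a single genotype, and the seeds completed their ripening in detached fruits. The embryo was sampled with 4 replicates in HT_DL, 3 in HT_HL, 3 in ST_DL and 4 in ST_HL, and the endosperm with 3 replicates in each condition. The comparisons ask how heat, dim light and both together during ripening changed the 10 genes in each seed tissue. HT_HL, ST_DL and HT_DL were each set against the same ST_HL libraries, so these comparisons are not independent of each other.

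Superoxide dismutases convert superoxide into hydrogen peroxide and oxygen. Ascorbate peroxidases then reduce hydrogen peroxide to water with ascorbate as the electron donor, and catalases break hydrogen peroxide down to water and oxygen without a reductant, mainly in peroxisomes. In oil-storing seeds peroxisomes release hydrogen peroxide during the beta-oxidation of fatty acids, and these enzymes are commonly followed in work on seed ageing, germination and heat stress.

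The 26 libraries held between 20450644 and 21519318 estimated reads each. Values are given as CPM, read counts scaled to a common library size, which are not corrected for gene length, so that levels are compared between libraries and not between genes. On the first principal component of all libraries, with 65.6% of the variance, the 14 embryo libraries lay apart from the 12 endosperm libraries. No list of defining embryo or endosperm genes was at hand for these identifiers, so the tissue labels were checked only by this separation. Within the embryo, replicates 2 and 3 of HT_DL and replicates 2 and 3 of ST_HL stood apart from the other 10 libraries. Their scores on the first embryo component, which held 61.5% of the variance, were between 118.8 and 126.2, against -66.1 to -25.9 in the others. Embryo results are therefore given also without these 4 libraries, and without replicates 1 and 4 of the same groups in their place. Fewer cells of a type and less RNA per cell cannot be told apart in these bulk samples.

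Several of the genes share reads, which bears on how far members of a family can be told apart. The estimated counts of APX Solyc06g005160 and Solyc06g005150 were not whole in any of 26 libraries, while their sum was whole, within 0.0025 reads, in 26 of 26. The counts of CAT1 and CAT3 were both not whole in 22 libraries, and their sum was whole in all 22. CAT2 was not whole in 26 libraries and SOD Solyc06g048410 in 15, with no partner among the 10 genes. The other 4 genes had whole counts throughout. The split of reads within the APX pair and between CAT1 and CAT3 is therefore an estimate.

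CAT1 was far lower in the embryo than in the endosperm under all 4 conditions, CAT3 and SOD Solyc01g067740 were also lower in the embryo under all 4, and APX Solyc06g005150 and SOD Solyc06g048410 were higher in the embryo under 3 of the 4. A gene was called where edgeR's quasi-likelihood test gave a p below 0.05 after Benjamini-Hochberg adjustment over all genes tested. Between embryo and endosperm 6 of the 10 genes were called in HT_DL, where 55.9% of all genes tested were called. In HT_HL 4 of 10 were called, against 52.4% of all genes. In ST_DL 8 of 10 were called, against 50.6% of all genes, and in ST_HL 5 of 10, against 55.1%. The share of the 10 genes called thus lay near that of all genes in HT_DL, HT_HL and ST_HL. Without the 4 embryo libraries that stood apart, 9, 8, 9 and 9 genes were called in HT_DL, HT_HL, ST_DL and ST_HL, against 60.3%, 60.8%, 58.9% and 57.3% of all genes. Without replicates 1 and 4 of the same groups, the counts were 6, 7, 9 and 6, against 57.7%, 58.8%, 57.0% and 58.5% of all genes.

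CAT1 in the ST_HL embryo had 48.5, 44.9, 79.8 and 45.8 CPM, against 3826, 3352 and 4062 CPM in the ST_HL endosperm. In HT_DL it had 27.0, 75.2, 88.5 and 39.6 CPM in the embryo, against 5015, 5465 and 5312 CPM in the endosperm. In HT_HL it had 12.2, 13.4 and 14.8 CPM in the embryo, against 2642, 2806 and 3309 CPM in the endosperm. Every embryo library was below every endosperm library by a wide margin. In ST_DL it had 327, 214 and 119 CPM in the embryo, against 2435, 2674 and 2485 CPM in the endosperm, the closest approach of the tissues. The log2 fold changes were -6.51 ± 0.37 (SE) in HT_DL, -7.76 ± 0.45 in HT_HL, -3.52 ± 0.37 in ST_DL and -6.10 ± 0.37 in ST_HL, with adjusted p at or below 8.39e-08, and the call held in every alternative run. CAT1 made up 68.0 to 84.7% of the catalase reads in endosperm libraries, whereas in embryo libraries its share was 1.79 to 41.9%.

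**Figure D1:**
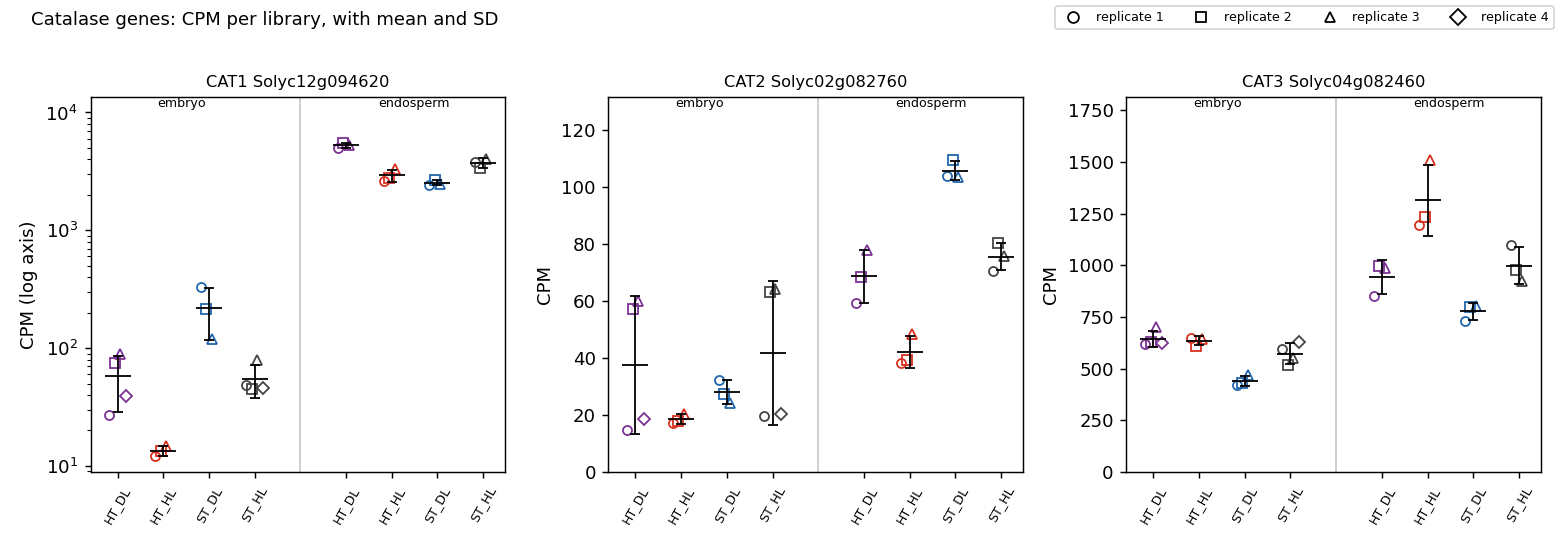
CPM of the 3 catalase genes in each library, by tissue and ripening condition. Symbols are replicates, horizontal bars the group mean and error bars the SD (n = 3 or 4), and CAT1 is on a log axis. CAT1 lies at 12.2 to 327 CPM in the embryo and at 2435 to 5465 CPM in the endosperm, and CAT2 splits by replicate in the HT_DL and ST_HL embryo.

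CAT3 differed between the tissues in the same direction and by less. Its log2 fold changes, embryo over endosperm, were -0.55 ± 0.10 (SE) in HT_DL, -1.05 ± 0.10 in HT_HL, -0.82 ± 0.10 in ST_DL and -0.80 ± 0.10 in ST_HL. SOD Solyc01g067740 was 117 ± 25.4 CPM in the HT_DL embryo (SD, n = 4) and 214 ± 31.4 CPM in the HT_DL endosperm (n = 3). Its log2 fold changes were -0.87 ± 0.14 in HT_DL, -1.25 ± 0.15 in HT_HL, -1.39 ± 0.15 in ST_DL and -1.11 ± 0.14 in ST_HL. All 14 embryo libraries, at 83.9 to 148 CPM, lay below all 12 endosperm libraries, at 182 to 295 CPM. CAT2 was lower in the embryo in ST_DL (log2 fold change -1.92 ± 0.46, adjusted p = 0.00138) and in HT_HL (-1.18 ± 0.45, adjusted p = 0.0326). The HT_HL call for CAT2 was lost when any of 5 of the 6 libraries was left out, all but endosperm replicate 1, with adjusted p between 0.053 and 0.088. In ST_HL and HT_DL CAT2 was not called with all libraries, unless same-numbered samples were treated as pairs (HT_DL only, -0.85, adjusted p = 0.0451). Without the 4 embryo libraries that stood apart it was called in ST_HL (-1.94, adjusted p = 7.4e-09) and HT_DL (-2.05, adjusted p = 3.85e-09). Leaving out only embryo replicate 2 or only 3 of the group also gave a call (adjusted p between 0.0266 and 0.039). Without replicates 1 and 4 it was called in neither.

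Genes that were higher in the embryo came from the APX and SOD families. SOD Solyc06g048410 was higher in HT_DL (log2 fold change 0.91 ± 0.25), ST_DL (1.56 ± 0.27) and ST_HL (0.94 ± 0.25), while in HT_HL the value was 0.20 ± 0.26, with an adjusted p of 0.553. In HT_DL it was 0.45, with an adjusted p of 0.0649, without embryo replicates 1 and 4. APX Solyc06g005150 was higher in HT_DL (0.75 ± 0.20), ST_DL (0.62 ± 0.21) and ST_HL (0.87 ± 0.20). Its partner Solyc06g005160 was lower in the ST_DL embryo (-1.94 ± 0.40, adjusted p = 0.000345). It was not called in the other conditions with all libraries and no replicate block. Without the 4 embryo libraries that stood apart it was called in ST_HL (-1.34, adjusted p = 6.01e-05) and in HT_HL (-0.83, adjusted p = 0.00107). Without replicates 1 and 4 it was called in HT_HL (-0.84, adjusted p = 0.000139) and not in ST_HL. The fit with the block, which treats same-numbered samples as pairs, called Solyc06g005160 in HT_HL as well (-0.83, adjusted p = 0.027). APX Solyc09g007270 was at -0.54 ± 0.23 (adjusted p = 0.0523) in ST_HL and -0.55 ± 0.25 (adjusted p = 0.0754) in ST_DL. The block called it in ST_HL (-0.58, adjusted p = 0.00442), ST_DL (-0.55, adjusted p = 0.00658) and HT_HL (-0.36, adjusted p = 0.0437). DESeq2 and the fit without replicates 1 and 4 called it in ST_HL (adjusted p = 0.026 and 0.00529) and ST_DL (adjusted p = 0.041 and 0.0314). Without the 4 libraries that stood apart it was called in ST_DL (adjusted p = 0.0379) and not in ST_HL. In HT_DL the direction of Solyc06g005160 turned with the replicates used: it was -0.71 (adjusted p = 0.0095) without the 4 embryo libraries that stood apart and 0.60 (adjusted p = 0.00538) without replicates 1 and 4. SOD Solyc06g049080 was higher in ST_DL (0.45 ± 0.13) and in HT_DL (0.30 ± 0.12, adjusted p = 0.0397). Leaving out HT_DL embryo replicate 1 or 4, or HT_DL endosperm replicate 1 or 3, ended the HT_DL call (adjusted p between 0.057 and 0.138), and without embryo replicates 1 and 4 together it was 0.09 (adjusted p = 0.433). The ST_DL call of Solyc06g005150 was lost without ST_DL embryo replicate 1 (adjusted p = 0.0952) or ST_DL endosperm replicate 3 (adjusted p = 0.0529).

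Among ripening conditions, the median log2 fold change of the 10 genes in HT_HL was -0.16 in the embryo, against -0.07 for all genes, and 0.11 in the endosperm, against -0.0021 for all genes. Under heat in high light 5 of the 10 genes changed in the endosperm, where 23.8% of all genes tested were called. Dim light at standard temperature changed 3 of 10 in the endosperm, against 3.77% of all genes. Within heat, dim light changed 8 of 10 (HT_DL against HT_HL), against 24.7% of all genes, and within dim light, heat changed 4 of 10 (HT_DL against ST_DL), against 12.6%. HT_DL against ST_HL gave 0 calls by edgeR's quasi-likelihood test, against 1.04% of all genes, and 4 calls by DESeq2, against 2.97% of all genes. The DESeq2 calls were CAT1 (0.49, adjusted p = 0.000285), APX Solyc06g005160 (-0.62, adjusted p = 0.0126), APX Solyc09g007270 (-0.73, adjusted p = 0.026) and SOD Solyc06g049080 (-0.33, adjusted p = 0.007). An unadjusted p below 0.05 in edgeR's test was found for 5 of the 10, and for 2103 of all 19185 genes.

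In the embryo 2 of 10 genes were called in HT_HL against ST_HL, where 17.8% of all genes tested were called. In ST_DL against ST_HL 2 of 10 were called, against 2.03% of all genes. In HT_DL against HT_HL 2 of 10 were called, against 14.6%, and in HT_DL against ST_DL 2 of 10, against 4.44%. HT_DL against ST_HL gave 0 calls by edgeR's quasi-likelihood test, against 0% of all genes, and 0 calls by DESeq2, against 0.286% of all genes. An unadjusted p below 0.05 in edgeR's test was found for 0 of the 10, and for 1004 of all 19253 genes. The 4 libraries that stood apart moved these counts strongly. Without them, 1, 1, 2 and 4 genes were called in HT_HL against ST_HL, ST_DL against ST_HL, HT_DL against HT_HL and HT_DL against ST_DL, with 14.3%, 0.567%, 9.26% and 3.75% of all genes. Without replicates 1 and 4 in their place, 10, 8, 8 and 8 genes were called, with 42.7%, 36.4%, 41.8% and 37.1% of all genes.

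**Figure D2:**
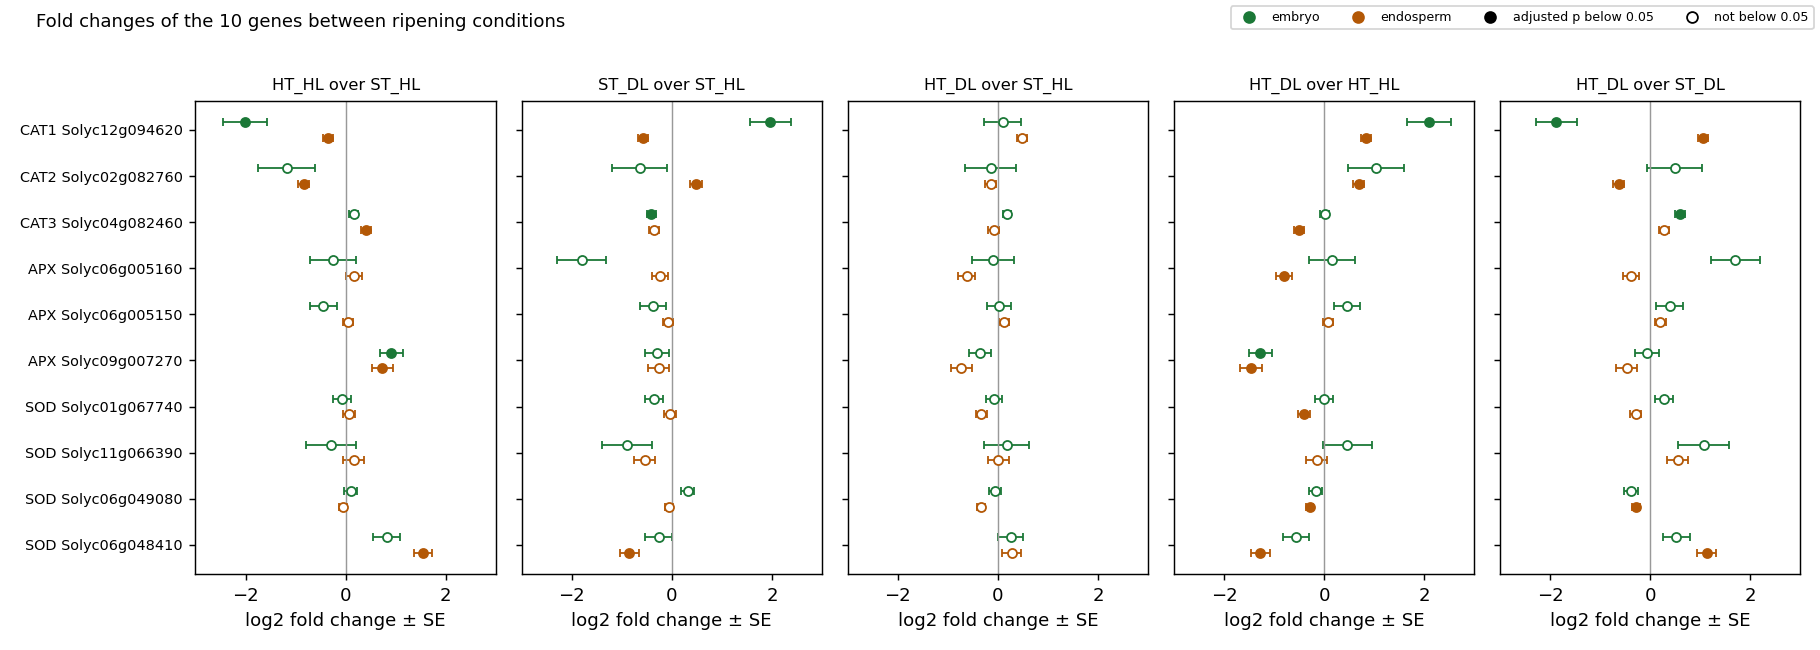
Log2 fold changes (± SE) of the 10 genes in 5 comparisons of ripening conditions, in the embryo (green) and the endosperm (brown). Filled points had an adjusted p below 0.05. CAT1 has filled points on opposite sides of 0 in the tissues in ST_DL over ST_HL and in HT_DL over ST_DL, and the HT_DL over ST_HL panel has no filled point.

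Of the superoxide dismutases, Solyc06g048410 was called in 4 of the 5 comparisons of conditions in the endosperm. In the endosperm it had 266, 241 and 234 CPM in HT_HL, against 90.7, 81.5 and 84.0 CPM in ST_HL. The groups were fully separate, and the gene rose by 1.55 ± 0.19 on the log2 scale (adjusted p = 0.000542), a call that held in every alternative run. Dim light at standard temperature gave 40.9, 47.3 and 54.1 CPM, below every ST_HL library (log2 fold change -0.85 ± 0.19, adjusted p = 0.0313). This call was lost when any 1 of the 6 libraries was left out, with adjusted p between 0.0682 and 0.126. HT_DL gave 142, 88.7 and 79.3 CPM, below all HT_HL libraries (-1.27 ± 0.19, adjusted p = 0.00115) and above all ST_DL libraries (1.12 ± 0.19, adjusted p = 0.00396). Replicate 1 of HT_DL was the highest of the 3, and both calls held with each library left out in turn.

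In the embryo Solyc06g048410 had 286, 249 and 317 CPM in HT_HL, against 232, 144, 103 and 175 CPM in ST_HL. Each HT_HL library was above each ST_HL library, yet the log2 fold change of 0.82 ± 0.27 had an adjusted p of 0.051. The gene was called by DESeq2 (0.83, adjusted p = 0.0144), with RLE normalization (0.83, adjusted p = 0.049) and with the replicate block (0.90, adjusted p = 0.018). Replicates 2 and 3 of ST_HL were the lower ones, and the value was 0.53 (adjusted p = 0.082) without the 4 libraries that stood apart and 1.21 (adjusted p = 0.000603) without replicates 1 and 4.

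Of the other SOD genes, edgeR's test with all libraries and no block called 2 in the endosperm and 0 in the embryo. In the embryo Solyc06g049080 had 210, 200 and 199 CPM in ST_DL, above all ST_HL and HT_DL libraries. For HT_DL against ST_DL it was called by DESeq2 (-0.41, adjusted p = 0.032) and with the replicate block (-0.43, adjusted p = 0.0387). Solyc01g067740 was called in the ST_DL embryo with the block (-0.47, adjusted p = 0.0314). Without embryo replicates 1 and 4 Solyc01g067740 was called in ST_DL over ST_HL (-0.54, adjusted p = 0.00102) and HT_DL over ST_DL (0.50, adjusted p = 0.00158). Solyc06g049080 was at 0.52 (adjusted p = 0.00323) and -0.59 (adjusted p = 0.00158) in the same comparisons and fit. Neither gene was called in these comparisons without the 4 libraries that stood apart. The shares of all genes called by edgeR's test without the block are given above for each comparison. Those of the DESeq2 and block fits were higher in these comparisons and are given below, with the dependence on the processing. Solyc01g067740 had 245, 182 and 216 CPM in the HT_DL endosperm, against 284, 267 and 288 CPM in the HT_HL endosperm. It fell by 0.40 ± 0.11 on the log2 scale (adjusted p = 0.0247), and the groups did not overlap. Solyc06g049080 averaged 123 ± 5.98 CPM in the HT_DL endosperm, against 148 ± 11.6 CPM in HT_HL and 149 ± 10.3 CPM in ST_DL (SD, n = 3 each). It was lower than in HT_HL by a log2 fold change of -0.29 ± 0.08 (adjusted p = 0.0184) and lower than in ST_DL by -0.28 ± 0.08 (adjusted p = 0.034). These 3 endosperm calls were not stable to single libraries. The first was lost without HT_DL replicate 2 or 3 or HT_HL replicate 1 or 3 (adjusted p between 0.0526 and 0.0798), the second without HT_DL replicate 3 (adjusted p = 0.083), and the last without any library but ST_DL replicate 1 (adjusted p between 0.05005 and 0.162). Solyc11g066390, with the fewest reads of the 10 genes (160 to 739 per library), lay between 7.72 and 30.2 CPM in the embryo and between 11.1 and 23.7 CPM in the endosperm and was called in no comparison with all libraries. In the embryo it split by replicate, with 9.89, 30.2, 24.5 and 7.72 CPM in HT_DL and 8.35, 19.9, 26.8 and 9.75 CPM in ST_HL, replicates 2 and 3 being the higher ones in both. Without replicates 1 and 4 its log2 fold change in ST_DL over ST_HL was -1.41 (adjusted p = 0.000514), and without the 4 libraries that stood apart -0.01 (adjusted p = 0.994). Between embryo and endosperm in HT_DL it was 0.61 (adjusted p = 0.0239) and -1.03 (adjusted p = 0.00106) in the same fits, so that its direction turned with the replicates used.

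**Figure D3:**
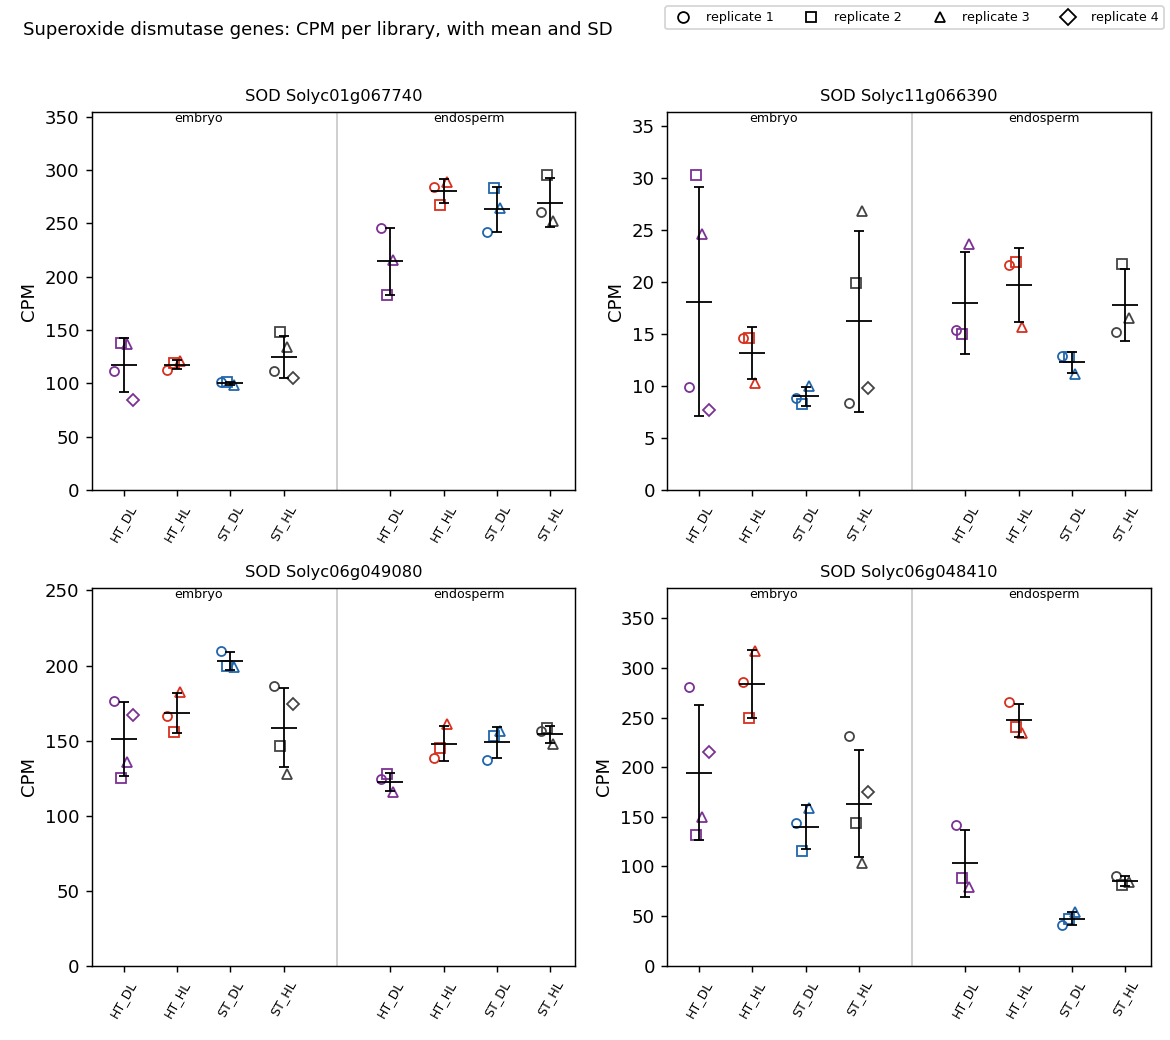
CPM of the 4 SOD genes in each library, by tissue and condition. Symbols are replicates, horizontal bars the mean and error bars the SD (n = 3 or 4). Solyc06g048410 in the endosperm lies at 234 to 266 CPM in HT_HL, above the 40.9 to 142 CPM of all other endosperm libraries.

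Of the ascorbate peroxidases, Solyc09g007270 was higher in HT_HL in both tissues. In the embryo it had 104, 73.1 and 109 CPM in HT_HL, against 72.5, 49.2, 34.9 and 49.6 CPM in ST_HL. The HT_HL libraries were all above the ST_HL ones, narrowly so for HT_HL replicate 2 and ST_HL replicate 1, and the gene rose by 0.91 ± 0.23 on the log2 scale (adjusted p = 0.0203). In the HT_DL embryo it had 55.4, 31.3, 34.2 and 39.1 CPM, below every HT_HL library (-1.27 ± 0.23, adjusted p = 0.00603). The HT_HL call was lost without HT_HL replicate 1 (adjusted p = 0.103) or 3 (adjusted p = 0.058), and without the 4 libraries that stood apart (0.69, adjusted p = 0.059), whereas the HT_DL against HT_HL call held throughout.

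In the endosperm Solyc09g007270 had 112, 96.5 and 164 CPM in HT_HL, against 77.1, 82.8 and 65.5 CPM in ST_HL. It rose by 0.74 ± 0.21 on the log2 scale (adjusted p = 0.0289) with no overlap, and the call was lost without ST_HL replicate 1 or 3 or HT_HL replicate 1 or 3 (adjusted p between 0.058 and 0.106). In HT_DL it had 59.9, 39.1 and 37.0 CPM, all below HT_HL (-1.47 ± 0.22, adjusted p = 0.00116). The light effect differed between the temperatures: dim light gave a log2 fold change of -1.47 under heat, against -0.26 ± 0.21 at standard temperature (difference -1.21 ± 0.30, adjusted p = 0.045). This interaction was called for 2 of the 10 genes in the endosperm, the other being CAT1, against 5.14% of all genes. For Solyc09g007270 it was lost without any of 10 of the 12 endosperm libraries, all but HT_DL replicate 1 and HT_HL replicate 2, with adjusted p between 0.0603 and 0.113.

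Of the APX pair that shares reads, Solyc06g005160 had 26.2, 22.2 and 18.7 CPM in the ST_DL embryo, against 44.3, 121, 97.6 and 36.8 CPM in ST_HL. All ST_DL libraries were below all ST_HL libraries, but ST_HL replicates 2 and 3 were far above replicates 1 and 4, and the log2 fold change of -1.80 ± 0.49 had an adjusted p of 0.0738. It was called by DESeq2 (-1.76, adjusted p = 0.00312) and with the replicate block (-1.96, adjusted p = 0.0106). It was -0.86 (adjusted p = 0.101) without the 4 libraries that stood apart and -2.33 (adjusted p = 5.55e-06) without replicates 1 and 4. Of the reads of the pair, Solyc06g005160 took 24.7 to 25.8% in the ST_DL embryo, against 37.8 to 53.7% in the ST_HL embryo. In the endosperm it had 79.6, 53.3 and 64.2 CPM in HT_DL, against 108, 99.9 and 131 CPM in HT_HL, and fell by 0.80 ± 0.16 on the log2 scale (adjusted p = 0.00562), with no overlap. Solyc06g005150 was called in no comparison of conditions with all libraries and no block, and lay between 41.6 and 54.7 CPM in the endosperm. Without embryo replicates 1 and 4 it was called against ST_HL in HT_HL (-0.77, adjusted p = 0.00145) and ST_DL (-0.70, adjusted p = 0.00288). In that fit HT_DL was called against HT_HL (0.76, adjusted p = 0.00161) and ST_DL (0.69, adjusted p = 0.00324), with the shares of all genes given above. Its embryo interaction was called there (1.46, adjusted p = 0.000166) and with the block (1.03, adjusted p = 0.0354).

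**Figure D4:**
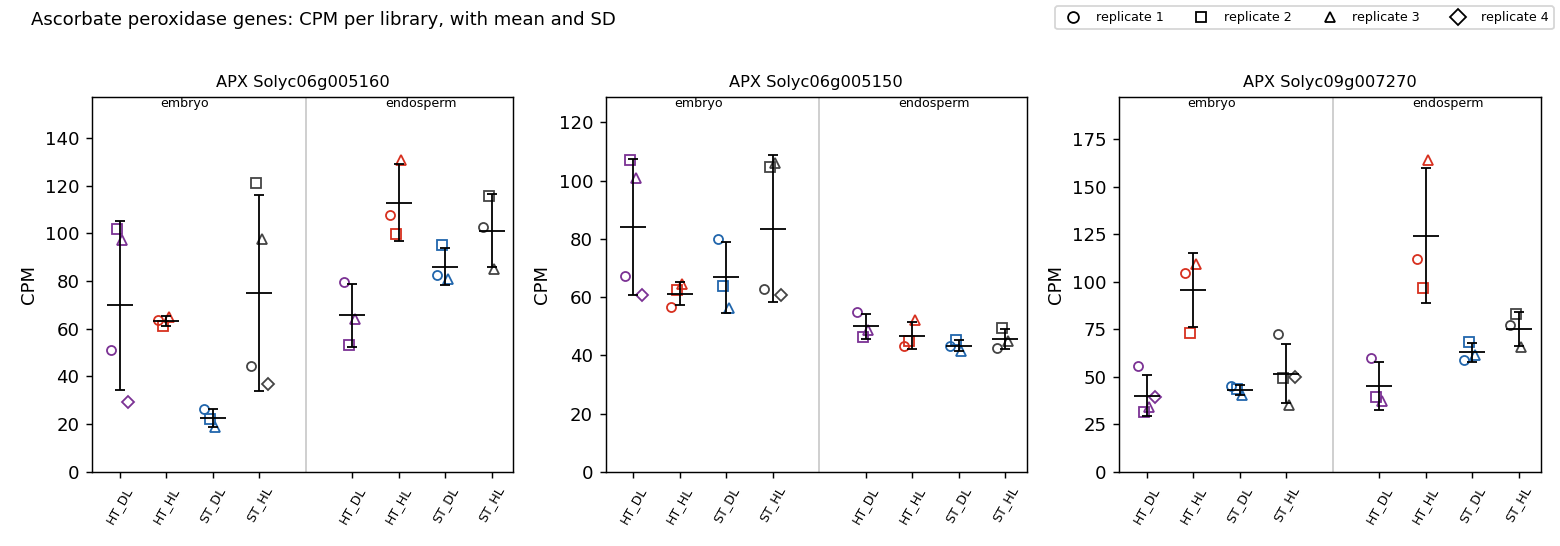
CPM of the 3 APX genes in each library, by tissue and condition. Symbols are replicates, horizontal bars the mean and error bars the SD (n = 3 or 4). In the HT_DL and ST_HL embryo, replicates 2 and 3 of both chromosome 6 genes lie above replicates 1 and 4, and Solyc09g007270 is lowest in HT_DL and highest in HT_HL in both tissues by group mean.

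Of the catalases, CAT1 changed in opposite directions in the tissues under dim light at standard temperature. In the embryo ST_DL gave 327, 214 and 119 CPM, against 48.5, 44.9, 79.8 and 45.8 CPM in ST_HL. The ST_DL libraries were all above the ST_HL ones and spread widely among themselves, and the gene rose by 1.96 ± 0.41 on the log2 scale (adjusted p = 0.032). In the endosperm ST_DL gave 2435, 2674 and 2485 CPM, against 3826, 3352 and 4062 CPM in ST_HL, a fall of 0.57 ± 0.10 on the log2 scale (adjusted p = 0.0135) with no overlap. The difference between the tissues was 2.57 ± 0.46 (adjusted p = 0.0457), the only one of the 10 genes called, against 0.0378% of all genes.

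These dim light calls were lost when any 1 of several libraries was left out, while the changes kept their direction. With 1 library left out in turn, the log2 fold change was 1.585 to 2.27 in the embryo and -0.64 to -0.50 in the endosperm. The shares of all genes called within each tissue were also lower in these fits, as given below. The embryo call was lost without ST_DL replicate 1 (adjusted p = 0.146) or 2 (0.103) or ST_HL replicate 1 (0.0581), 2 (0.102) or 4 (0.0627), and held without the 4 libraries that stood apart (2.22, adjusted p = 0.0217). The endosperm call was lost without ST_DL replicate 1 (0.0502), 2 (0.052) or 3 (0.0781) or ST_HL replicate 3 (0.0561). The difference between the tissues was lost without any of 11 of 13 libraries, all but ST_DL embryo replicate 3 and ST_HL embryo replicate 3, with adjusted p between 0.07 and 0.185. Its direction held in each of these fits.

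RNA of endosperm genes in the ST_DL embryo was measured beside this result with 49 genes, other than CAT1, that had a log2 fold change below -6 between HT_HL embryo and HT_HL endosperm and a mean above 100 CPM in the HT_HL endosperm. Their summed level was 563, 288 and 210 CPM in the ST_DL embryo, against 282, 171, 321 and 171 CPM in the ST_HL embryo. As a share of the endosperm mean this was 1.19, 0.607 and 0.443% in ST_DL, against 0.382 to 0.720% in ST_HL, and the groups overlapped. CAT1 was at 12.9, 8.46 and 4.72% of its endosperm mean in the same ST_DL libraries, against at most 2.13% in ST_HL. The order of the embryo libraries was the same for the sum and for CAT1 in ST_DL and in ST_HL, and differed in HT_DL and in HT_HL. Of the 49 genes, 27 had a higher mean in the ST_DL embryo than in the ST_HL embryo, with a median ratio of 1.19. The part of endosperm RNA in the CAT1 result was not tested.

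Under heat in high light CAT1 was lower in both tissues. The HT_HL embryo had 12.2, 13.4 and 14.8 CPM, against 44.9 to 79.8 CPM in ST_HL, and CAT1 fell by 2.01 ± 0.44 on the log2 scale (adjusted p = 0.0103). In the HT_DL embryo it had 27.0, 75.2, 88.5 and 39.6 CPM, above all HT_HL libraries (2.10 ± 0.44, adjusted p = 0.0102) and below all ST_DL libraries (-1.87 ± 0.41, adjusted p = 0.0236). Both calls against HT_HL were lost without HT_HL replicate 1 (adjusted p = 0.065 against ST_HL and 0.0671 for HT_DL), and the call against ST_DL without ST_DL replicate 1 (0.113) or 2 (0.0828). Without the 4 libraries that stood apart the 3 values were -1.76, 1.27 and -2.71, all called.

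In the endosperm CAT1 had 2642, 2806 and 3309 CPM in HT_HL, against 3352 to 4062 CPM in ST_HL, a fall of 0.35 ± 0.10 on the log2 scale (adjusted p = 0.0297). That call was lost without ST_HL replicate 1 or 3 or HT_HL replicate 1 or 2 (adjusted p between 0.0705 and 0.123). HT_DL gave the highest CAT1 levels of all groups, 5015, 5465 and 5312 CPM, above every other endosperm library. CAT1 was higher than in HT_HL by 0.83 ± 0.10 (adjusted p = 0.000517) and than in ST_DL by 1.05 ± 0.10 (adjusted p = 0.000233), and against ST_HL the value of 0.48 ± 0.10 had an adjusted p of 0.0509 (DESeq2 0.49, adjusted p = 0.000285). Dim light thus went with more CAT1 under heat and with less at standard temperature, and this interaction of 1.40 ± 0.14 (adjusted p = 0.00239) was called in each of the 17 alternatives. In the embryo the same interaction was called by edgeR for 0 of the 10 genes, against 3.27% of all genes, and by DESeq2 for 4, against 22.1% of all genes. An unadjusted p below 0.05 was found for 5 of the 10, and for 6523 of all 19253 genes. The CAT1 value was 0.14 ± 0.58. Without replicates 1 and 4 of the HT_DL and ST_HL embryo 9 genes were called, against 49.2% of all genes.

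CAT2 followed another order in the endosperm. It had 38.1, 39.4 and 48.3 CPM in HT_HL, against 70.6, 80.2 and 75.7 CPM in ST_HL, and fell by 0.84 ± 0.11 on the log2 scale (adjusted p = 0.000815). In ST_DL it had 104, 110 and 104 CPM, above ST_HL (0.48 ± 0.11, adjusted p = 0.0386), a call lost when any 1 of the 6 libraries was left out (adjusted p between 0.0868 and 0.143). In HT_DL it had 59.4, 68.4 and 77.9 CPM, above HT_HL (0.69 ± 0.11, adjusted p = 0.00185) and below ST_DL (-0.63 ± 0.11, adjusted p = 0.00523). The groups did not overlap in any of these 4 comparisons. In the embryo CAT2 split by replicate: it had 14.7, 57.2, 59.9 and 18.4 CPM in HT_DL and 19.6, 63.0, 64.3 and 20.2 CPM in ST_HL, with replicates 2 and 3 the higher ones in both. HT_HL gave 17.1, 17.9 and 20.4 CPM (-1.18 ± 0.56 over ST_HL, adjusted p = 0.144), a value of -0.06 without the 4 libraries that stood apart and -1.77 (adjusted p = 8.89e-06) without replicates 1 and 4. In HT_DL over ST_DL it was -0.74 (adjusted p = 0.0332) without the 4 libraries and 1.11 (adjusted p = 0.00014) without replicates 1 and 4.

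CAT3 was called lower in ST_DL than in ST_HL in the embryo and higher in HT_HL than in ST_HL in the endosperm. In the embryo it had 422, 432 and 467 CPM in ST_DL, against 595, 517, 549 and 628 CPM in ST_HL, and fell by 0.41 ± 0.09 on the log2 scale (adjusted p = 0.0383). This call was lost without any 1 of the 7 libraries (adjusted p between 0.0623 and 0.179) and without the 4 that stood apart (adjusted p = 0.0649), although the groups did not overlap. HT_DL gave 620, 628, 701 and 624 CPM, above all ST_DL libraries (0.59 ± 0.09, adjusted p = 0.00558), and this call held with each library left out. In the endosperm CAT3 had 1197, 1234 and 1511 CPM in HT_HL, against 1096, 976 and 924 CPM in ST_HL, and rose by 0.41 ± 0.10 (adjusted p = 0.0144), a call lost without ST_HL replicate 2 (0.0571) or 3 (0.0657). HT_DL gave 850, 995 and 986 CPM, below HT_HL (-0.50 ± 0.10, adjusted p = 0.00546). ST_DL gave 729, 800 and 803 CPM in the endosperm, below all ST_HL libraries (-0.36 ± 0.10, adjusted p = 0.0755). DESeq2 called this fall (-0.37, adjusted p = 0.0241). The dim light change of CAT3 differed between the tissues by -0.02 in DESeq2 (adjusted p = 0.983). CAT1 and CAT3 were called in opposite directions in the HT_HL endosperm against ST_HL. There CAT1 took 68.0 to 68.8% of catalase reads, against 76.0 to 80.2% in ST_HL. Both calls were lost without single libraries, and that of CAT1 also with no low-count filter. The split of reads between CAT1 and CAT3 is an estimate.

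The response to heat in high light was compared between the tissues. The tissue difference in HT_HL was called by edgeR for 0 of 10 (1 at an unadjusted p below 0.05), against 1.73% of all genes, with CAT1 at -1.66 ± 0.47 (adjusted p = 0.0738). DESeq2 called 1 of 10, CAT1 (-1.63, adjusted p = 0.0169), against 5% of all genes. Without the 4 libraries that stood apart edgeR called 2 genes, against 2.39% of all genes, and without replicates 1 and 4 of those groups 5, against 18.1%. CAT1 was in both sets (-1.43, adjusted p = 0.0408, and -1.85, adjusted p = 0.00269), and CAT2 was in both with opposite signs (0.77, adjusted p = 0.045, and -0.93, adjusted p = 0.00151). In HT_DL 0 of 10 were called, 0 had an unadjusted p below 0.05 and DESeq2 called 0, against 0.00945% of all genes by edgeR and 0.0709% by DESeq2.

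Genes of pathways that release or use hydrogen peroxide were counted from the annotation tables, of which only a part was used here. Among the listed sources of peroxide, 1 of 2 glycolate oxidase genes tested in the endosperm was called in HT_HL against ST_HL, and 0 of 5 acyl-CoA oxidase genes in either tissue. In this comparison 23.8% of all genes were called in the endosperm and 17.8% in the embryo, which is the share that the counts of each list stand against. The glycolate oxidase gene Solyc07g056540 averaged 92.4 ± 12.2 CPM in HT_HL and 53.8 ± 5.698 CPM in ST_HL (SD, n = 3 each; log2 fold change 0.79 ± 0.11, adjusted p = 0.000929). Of 18 other photorespiration genes tested in the endosperm, 1 rose and 5 fell in HT_HL, and the median change of the list was -0.28 on the log2 scale, against -0.0021 for all genes. The serine hydroxymethyltransferase gene Solyc04g076790 was among those that fell, by 0.60 ± 0.14 in the endosperm and by 1.81 ± 0.44 in the embryo, and Solyc12g098490 fell by 1.13 ± 0.20 in the ST_DL endosperm. Of 9 glyoxylate cycle genes, which turn fatty acid carbon towards sugars, 3 rose and 0 fell in the HT_HL endosperm, and 2 rose and 1 fell in the HT_HL embryo, so that 3 of 9 were called in each tissue, against those shares of 23.8% and 17.8%. Isocitrate lyase Solyc07g052480 averaged 7027 ± 547 CPM in the HT_HL endosperm and 3148 ± 1098 CPM in ST_HL (log2 fold change 1.17 ± 0.32, adjusted p = 0.0216), and aconitase Solyc12g005860 rose by 0.46 ± 0.09. Of 7 other beta-oxidation genes 1 fell, the multifunctional enzyme gene Solyc06g009160 (-0.25 ± 0.07). In HT_DL against HT_HL 3 of 5 acyl-CoA oxidase genes rose and 0 fell in the endosperm, against 24.7% of all genes called. The median change of that list was 0.59, against 0.017 for all genes. In the embryo 0 of the 5 were called, against 14.6% of all genes. Of the 8 genes listed with peroxidase activity, 2 were tested in the embryo and 1 in the endosperm, and 0 were called against ST_HL.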

How the data were processed

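RNA was extracted from embryos and endosperms, each replicate pooling 10 seeds, and sequenced in 26 libraries. The authors quantified reads with Salmon 0.14.1 on the SL4.0 transcriptome with the ITAG4.0 annotation, and deposited estimated counts (expected counts), which were rounded to whole numbers here. Total counts were 20450644 to 21519318 per library. Replicates are separate samples by their labels, and p-values measure only the spread between these samples.

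Embryo, endosperm and all libraries were each fitted with edgeR 4.0.16 (R 4.3.3; TMM scaling, genes kept by filterByExpr at min.count 10 and min.total.count 15, quasi-likelihood F-test) with 1 coefficient per group, and p-values were adjusted by Benjamini and Hochberg over 19253, 19185 and 21153 genes. This gave 19 comparisons. CPM used TMM library sizes of the 26-library fit. The standard error is the log2 fold change divided by the root of F. All 10 members are named, and of the listed pathway genes at most 2 per list, those called against ST_HL with the largest absolute fold change. The members and lists were chosen with earlier results of these data known. Alternatives were DESeq2 1.42.0, RLE normalization, no low-count filter, a log2 fold threshold of 1, the replicate number as a block, and libraries left out. No 2 replicates agreed within sampling noise (chi-square per degree of freedom at least 3.83).

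Same-numbered samples deviated together (every correlation above 0.1) in the embryo for HT_DL and ST_HL (0.728 to 0.805), and between tissues for HT_HL (0.129 to 0.346) and ST_HL (0.102 to 0.437). Only same-numbered samples were compared, so this check cannot tell whether differently numbered samples deviated together as well. In the HT_DL and ST_HL embryo, replicates 2 and 3 of both groups stood apart from replicates 1 and 4. The labels do not say what a number shares, so pairing by number is an assumption.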

Additional observations from a re-analysis of the deposited data

Results flagged for a closer look

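In the embryo groups of 4 libraries, 20 gene and group combinations were examined for a library far from the others, and 2 had one, where chance gives about 1 in 20. CAT1 Solyc12g094620 was at 79.8 CPM in ST_HL embryo replicate 3, against 44.9 to 48.5 CPM in the other 3 libraries. CAT3 Solyc04g082460 was at 701 CPM in HT_DL embryo replicate 3, against 620 to 628 CPM in the other 3.

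The effect of dim light differed between temperatures in the endosperm for CAT1 Solyc12g094620, by 1.40 on the log2 scale, and for APX Solyc09g007270, by -1.21. In the embryo the value for Solyc09g007270 was -0.98, called only under alternatives. The effect of dim light at standard temperature differed between embryo and endosperm for CAT1 Solyc12g094620, by 2.57.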

How the results depend on the processing

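No gene called with all libraries changed direction under any alternative. Genes called only under alternatives did so in 4 cases: the fits without embryo replicates 2 and 3 and without 1 and 4 called CAT2 in embryo HT_DL against ST_DL (-0.74 and 1.11) and in the tissue difference for HT_HL (0.77 and -0.93), and APX Solyc06g005160 (-0.71 and 0.60) and SOD Solyc11g066390 (-1.03 and 0.61) between tissues in HT_DL, in opposite directions. With a fold threshold as well, the counts were 1 in embryo HT_HL (4.84% of all genes) and 1 in embryo ST_DL (0.587%), both against ST_HL. They were 1 in embryo HT_DL against ST_DL (1.23%), 1 in endosperm HT_HL (5.85%) and 0 in endosperm ST_DL (1.14%). In endosperm HT_DL 2 were called against HT_HL (5.93%) and 2 against ST_DL (4.01%). Between tissues the counts were 2 in ST_HL (31.1%), 5 in ST_DL (29.6%) and 1 in HT_DL (32.2%). With no low-count filter embryo ST_DL gave 1 (0.836% of all genes). DESeq2 gave 4 in embryo HT_DL against ST_DL (13.5% of all genes) and 4 in the embryo interaction of light and temperature (22.1%). It gave 4 in endosperm HT_DL against ST_HL (2.97%) and 1 in the tissue difference for HT_HL (5%). RLE gave 0 in the tissue difference for ST_DL (0.0331%). With the replicate block the counts were 4 in embryo ST_DL (13.1% of all genes), 4 in embryo HT_DL against ST_DL (14.4%) and 5 in the embryo interaction (25.5%). They were 1 in the endosperm interaction (1.56%) and 0 in the tissue difference for ST_DL (0.0473%). Same-numbered samples did not all deviate together in the conditions that these compare. Where same-numbered samples deviated together, the block gave 0 in embryo HT_DL against ST_HL (0% of all genes). A fit of those 2 conditions alone, chosen after seeing the data, also gave 0 (0.0593% of all genes). Between the tissues the block gave 6 in both ST_HL (58.6% of all genes) and HT_HL (57.4%), within 1.5 times the counts of 5 and 4.

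Without the embryo replicates 2 and 3 that stood apart, the counts were 1 in HT_HL, 1 in ST_DL and 4 in HT_DL against ST_DL, 9 in ST_HL and 8 in HT_HL between tissues, and 2 in the tissue difference for HT_HL. Without replicates 1 and 4 they were 10 in HT_HL, 8 in ST_DL, 8 in HT_DL against HT_HL and 8 in HT_DL against ST_DL. They were 9 in the interaction, 7 in HT_HL between tissues, and 5 and 7 in the tissue differences for HT_HL and ST_DL. In the tissue difference for ST_DL 14.1% of all genes were called in this fit. The shares of all genes for the other counts are given above. The cause was not tested.

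With 1 library left out in turn, the counts in the embryo ranged over 0 to 3 in HT_HL, 0 to 1 in ST_DL and 0 to 0 in HT_DL. They ranged over 1 to 2 in HT_DL against HT_HL, 1 to 3 in HT_DL against ST_DL and 0 to 2 in the interaction. The shares of all genes called were 3.97 to 19.4%, 0.193 to 1.61%, 0%, 2.41 to 19.9%, 0.814 to 5.49% and 0 to 19.4% in the same order. In the endosperm the counts ranged over 2 to 4, 0 to 1, 0 to 0, 6 to 8, 3 to 6 and 1 to 3 in the same order. The shares of all genes were 11.8 to 25.2%, 0.883 to 1.68%, 0.0205 to 0.8%, 12.6 to 24.8%, at least 5.54%, and 0.526 to 7.62%. Between tissues the counts were 5 to 6 in ST_HL, 7 to 8 in ST_DL, 3 to 4 in HT_HL and 5 to 7 in HT_DL. The shares of all genes there were 47.2 to 54.1%, 43.9 to 45.8%, 46 to 49.5% and 48.7 to 55.2%. For the tissue differences the counts were 0 to 0 in HT_HL, 0 to 1 in ST_DL and 0 to 0 in HT_DL. The shares there were 0.301 to 2.31%, 0.00463 to 0.0428% and 0 to 0.0232%. The fewest reads, 160 in each of 2 embryo libraries, were those of SOD Solyc11g066390.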
